A study of Mus musculus with 7 samples.

Results

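The acute phase protein genes Saa1, Saa2, Saa3, Saa4, Orm1, Orm2, Hp, Crp, Apcs and Hamp were examined for CTCF and cohesin binding in mouse liver. Each of the 10 genes was taken with 50 kb on either side of its annotated span, and overlapping spans were merged into 6 windows named Saa, Orm, Hp, Hamp, Crp and Apcs. The windows, 672.3 kb in all, held 52 of the 76683 CTCF peaks, 59 of the 67369 Rad21 peaks and 30 of the 52436 CTCF sites with a class. The members were chosen by gene name and not by binding, but with earlier results of these data known.

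Binding was measured by chromatin immunoprecipitation and sequencing (ChIP-seq) in livers of male Crl:CD1(ICR) mice aged 8 weeks, an outbred stock for which no treatment was named, with 4 CTCF libraries and 3 libraries for Rad21, a subunit of the cohesin ring. All animals had the same strain, sex and age, and the design held no second condition, so no inflamed liver was compared with a resting one. The libraries of a factor were merged before peaks were called. The values below are therefore 1 per factor, with no spread between livers and no test.

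The acute phase response is the change in liver secretion that follows infection or injury. Interleukin 6 and interleukin 1 reach the hepatocyte, and STAT3, NF-kappaB and C/EBP factors raise transcription of positive acute phase genes, while negative ones such as albumin fall. CTCF binds an asymmetric motif, and cohesin extruding a loop tends to stop where a pair of such motifs point towards each other, which is called a convergent pair. A site bound by both is called here a cohesin-and-CTCF (CAC) site. The study's classes were the TAD anchor (at the end of a topologically associating domain), the intra-TAD anchor (at the end of a shorter predicted loop), the other CAC site and the lone CTCF site. Intra-TAD anchors were predicted from CTCF and Rad21 strength and motif strand, in loops that had to hold a gene start, which ties them to genes by construction. TAD anchors were chosen by motif strand and nearness to a domain end among CTCF peaks with a motif seen in every liver, with no score for strength. Class, motif strand, strength and nearness to genes are therefore not independent of each other.

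The core CTCF motifs of the 11 anchors, and of the strongest CTCF site in the Saa and Orm windows, are shown because their orientation sets the geometry described below. Sequences are from mm9, 5′ to 3′ on the strand given, with the 19 motif bases in capitals and 5 bases of flank on each side.
Saa window, TAD anchor at Tph1, chr7:53920717-53920745, + strand: agaacTGGCCAGCAGGGGGCAGAAgcggt
Saa window, other CAC site at Saal1, chr7:53966084-53966112, - strand: ggagcCTGACGGCAGGGGGCGCTGtgtgg
Saa window, intra-TAD anchor in Saa3, chr7:53970070-53970098, + strand: atcacTCTCCACAAGGGGGCAGTAgaggc
Saa window, intra-TAD anchor in Hps5, chr7:54026260-54026288, - strand: cattcCTGCCAGCAGTGGGAGCTCttccc
Orm window, intra-TAD anchor in Col27a1, chr4:62968626-62968654, - strand: ttaagTGGCCGGCAGGGGGCGCGCtttca
Orm window, intra-TAD anchor in Col27a1, chr4:62980795-62980823, - strand: acaaaGGCCCACCAGAGGGTGCCCgtgga
Orm window, other CAC site in Akna, chr4:63029797-63029825, + strand: gcatcTGGCCAGCAGGTGGCAGCAcagca
Orm window, TAD anchor in Akna, chr4:63033103-63033131, - strand: acaagAAGCCAGGAGGGGGCAGTAgcaaa
Hp window, TAD anchor in Pmfbp1, chr8:112060797-112060825, - strand: tccagTGACCAGCAGAGGGCGCCCctgct
Hp window, TAD anchor in Dhx38, chr8:112075748-112075776, + strand: gccagCAGCCAGCAGGGGGCGATCctctg
Hamp window, intra-TAD anchor in Mag, chr7:31689256-31689284, - strand: acactCTGCCAGTAGATGGCAGAGttggg
Hamp window, intra-TAD anchor in Usf2, chr7:31741011-31741039, + strand: gtatgTCACCTGCAGGGGGCGGCAgagcg
Hamp window, intra-TAD anchor at Lsr and Fam187b, chr7:31759228-31759256, - strand: tctcgGCGCCACCAGGGAGCAGCAgtgtt
Counting from the 5′ end of the motif, positions 5, 10 and 14 carried the same base in 17 of 17 motifs read this way. The motifs were located with the core CTCF matrix, so this sameness follows in part from how they were found. Those 17, of 25 window sites with a deposited motif, are the sequences above with 4 more: the sites near Orm1 and Dhodh described below, and the strongest site of the Crp and of the Apcs window, both far from the gene.

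CTCF peaks were about as many around these genes as around protein-coding genes in general, and Rad21 peaks were more. Against genes of at most 5 kb, peaks of both factors were more. Most of the peaks nearest to the genes were weak. Per 100 kb the windows held 7.73 CTCF and 8.78 Rad21 peaks, against 2.89 and 2.54 over the whole genome, which includes regions without genes. Counted gene by gene within 50 kb, the 10 members had a median of 9 CTCF peaks (4 to 13) and 10.5 Rad21 peaks (6 to 15). These counts are not independent, because the 4 Saa genes share peaks with one another, as do Orm1 and Orm2. All 22380 protein-coding genes had medians of 8 and 6, and genes of at most 5 kb, the more like comparison in length, had 4 and 3. Saa2 had the most Rad21 peaks of the members, at 15, a count that 92.3% of protein-coding genes did not exceed. For Rad21 the other members lay between 52.0% (Apcs) and 83.8% (Saa1, Saa3 and Saa4). Apcs had the fewest of both, with 4 CTCF and 6 Rad21 peaks, and its CTCF count was one that 31.9% of genes did not exceed. For CTCF the other members lay between 43.3% (Hamp) and 82.2% (Hp). The study kept only reads that map to 1 place. Reads of 50 bases were unique over 76.1% of the Crp window, 86.1% of Apcs and 83.2% of Hamp. At Saa, Orm and Hp the share was 94.6 to 96.8%. The part of this in the counts was not tested.

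The peak score is 10 times the −log10 of the q-value of the summit, so it grows with both enrichment and depth. The windows' CTCF peaks had a median score of 240 (35 to 10752), where the whole list had 321, and their median summit held 51.5 fragments, where it held 69. With a flank of 25 kb the median CTCF score was 115. Their Rad21 peaks had a median score of 123 and of 40.5 fragments, against 164 and 47. The CTCF peaks covered a wide range. In all, 18 of the 52 scored at least 1000 (31.4% of the whole list did), and 21 scored under 100 (24.9% of the whole list).

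Co-binding by Rad21 was found at 40 of the 52 CTCF peaks (76.9%, exact Clopper-Pearson 95% interval 63.2 to 87.5, counting error only), where the whole list had 67.3%. Of the 59 Rad21 peaks, 18 had no CTCF peak (30.5%, interval 19.2 to 43.9), where the whole list had 22.7%. Both whole-list shares lie inside the windows' intervals. With co-binding defined as summits within 100 bp, 57.7% of the windows' CTCF peaks had Rad21, and 49.2% of their Rad21 peaks had no CTCF. The whole list was not counted that way. The 18 Rad21 peaks without CTCF were weak, with a median score of 76 (25 to 161), as they were in the whole list (median 65). A CTCF motif match lay in 3 of the 18 (16.7%), against 17.8% in the whole list. By window they were 7 of 16 Rad21 peaks at Saa, 4 of 10 at Hamp, 3 of 8 at Crp, 2 of 6 at Apcs, 2 of 11 at Hp and 0 of 8 at Orm (interval up to 36.9%). The interval of each window holds the share of the whole list.

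A class was given to 30 of the 52 CTCF peaks (68.4% in the whole list). The 4 TAD anchors scored 1186 to 2632 and the 7 intra-TAD anchors 1797 to 10752. Non-anchor CAC sites numbered 13 (285 to 8571), and 6 sites were lone (67 to 297). No class was given to the other 22 CTCF peaks (42.3%, against 31.6% of the whole list). Classes had been restricted to peaks found in several livers. These 22 were weak, with a median score of 68.5. Even so, 14 of them overlapped a Rad21 peak (63.6%, against 36.4% of all peaks with no class). A motif match was present in 7 (31.8%, interval 13.9 to 54.9, against 53.8%). Anchors made up 11 of the 30 classed sites, where the whole list had 28.4%.

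**Figure D1:**
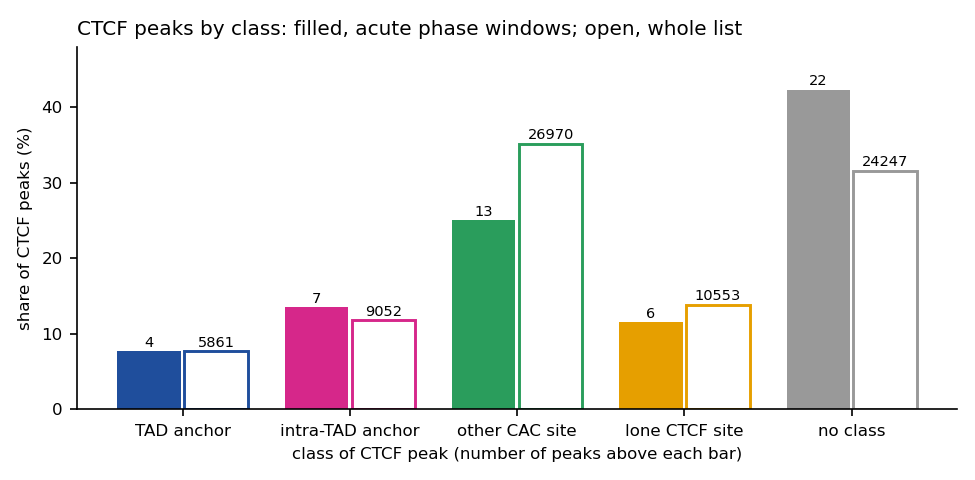
Share of CTCF peaks (%, vertical axis) in each class, for the 52 peaks of the windows (filled bars) and the 76683 of the whole list (open bars), with the number of peaks above each bar. Peaks with no class made up 42.3% in the windows and 31.6% in the whole list, other CAC sites 25% and 35.2%, and TAD anchors 7.69% and 7.64%.

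The starts of the acute phase genes carried both factors at 8 of 10 members. A CTCF summit lay within 1 kb of a start at Saa3, Saa4, Orm1, Orm2, Hp, Crp, Apcs and Hamp (background, 55.1% of protein-coding genes), and a Rad21 summit at the same 8 (52.3%). Both were found at 50.1% of all protein-coding genes and at 21.9% of those of at most 5 kb. The binding was weak. The strongest CTCF score at these 8 starts had a median of 92 (37 to 2132), against 538 for all genes with a CTCF summit there. With peaks of a score of at least 100 alone, CTCF was left at 3 of the 10 starts, those of Orm1, Orm2 and Saa3 (49.9% of all genes, and 22.3% of genes of at most 5 kb), and Rad21 at 6 (44.4% and 18.3%). Among all genes with a CTCF summit at the start, 90.6% reached that score. For Rad21 the median of the strongest score was 116.5 (66 to 2058) against 257, and 84.7% of all genes with a Rad21 summit there reached 100.

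These starts were also poor in CpG dinucleotides, in which most promoters of broadly used genes are rich. The ratio of observed to expected CpG within 500 bp of the 5′ end was between 0.0544 (Saa1) and 0.212 (Saa4), with a median of 0.133 against 0.549 over all protein-coding genes. Of the 5212 protein-coding genes with a ratio no higher than that of Saa4, 11.9% had a CTCF summit at a start, 11.7% a Rad21 summit and 9.84% both. With a score of at least 100 the shares were 9.29% for CTCF and 8.65% for Rad21. The strongest score at the start of such genes, where there was a peak, had a median of 339 for CTCF and 192 for Rad21. At the outermost 5′ end alone these were 215 and 136.5, against 92 and 116.5 for the members. Those genes were not restricted to ones active in liver, since the lists hold no expression values, and the part of activity in these shares was not tested.

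The serum amyloid A genes encode apolipoproteins of high density lipoprotein. Saa1 and Saa2 are the main circulating acute phase forms, Saa3 is made in many tissues, and Saa4 is made in liver without much induction. At Saa3 the CTCF peak nearest to the start lay 976 bp downstream, inside an intron (chr7:53969885-53970274), with a score of 2132 and 386 fragments. Its Rad21 peak scored 2058 with 271 fragments, so Saa3 was the only member with a score of at least 1000 for either factor at its start. At Saa4, across a gap of 12.3 kb, the CTCF peak 901 bp downstream scored 37 with 27 fragments and overlapped a Rad21 peak of score 106. A second Rad21 peak, 34 bp from the start, scored 50 and had no CTCF peak.

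Saa1 and Saa2 were the 2 members with no summit within 1 kb. The CTCF peak nearest to Saa1 was 1584 bp upstream (score 59, 25 fragments), and the nearest Rad21 peak 3012 bp upstream (123, 40 fragments). For Saa2 they were 6530 bp upstream (297, 57 fragments) and 4565 bp upstream (69, 32 fragments). The genes are transcribed away from each other, and the 8.85 kb between their starts held 2 CTCF peaks and 3 Rad21 peaks. None of the 3 Rad21 peaks, scoring 123, 102 and 69, overlapped CTCF. The 2 genes are near-identical copies, and the study kept only reads that map to 1 place. Within 1 kb of the 5′ end, 73.9% of 50-base reads were unique at Saa1 and 75.1% at Saa2, against 97.9 to 100% at every other member except Hamp (76.0%). The part of this in the missing peaks was not tested.

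Orm1 and Orm2 encode alpha-1-acid glycoprotein, also called orosomucoid, a plasma protein that binds drugs and steroids. At Orm1 the CTCF summit was 101 bp downstream of the start, in a coding exon, and scored 115 with 37 fragments, beside a Rad21 summit 54 bp upstream that scored 80. It was classed as a lone CTCF site although the pooled lists overlap, and its motif, of low score (9.05), lay 261 bp from the summit. At Orm2 the CTCF summit was 5 bp upstream, scored 285 with 52 fragments and had no motif, and the Rad21 summit was 124 bp upstream (132). Orm3, the paralog between them, had neither factor at its start. Reads of 50 bases were unique over 91.4% of the Orm1 span and 90.5% of the Orm2 span, and over 98.4% and 99.2% within 1 kb of the 5′ ends, where these peaks lie.

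Hp encodes haptoglobin, which binds free haemoglobin. Its CTCF summit, 319 bp upstream, scored 97 with 41 fragments, and its Rad21 summit, 167 bp downstream, scored 127 with 50 fragments. The 2 peaks did not overlap, so Hp was the single start among the 8 where neither peak was co-bound. Crp and Apcs encode the short pentraxins C-reactive protein and serum amyloid P, and in the mouse it is serum amyloid P that rises most in inflammation. At Crp the CTCF summit was 214 bp upstream (67, 25 fragments) with no motif, and Rad21 summits lay 37 and 773 bp downstream (130 and 161). At Apcs the CTCF summit was 246 bp downstream (55, 23 fragments) and the Rad21 summit 146 bp downstream (105, 31 fragments).

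Hamp encodes hepcidin, the hormone that lowers export of iron through ferroportin. The CTCF summit was 238 bp upstream of its start (87, 28 fragments) and the Rad21 summit 251 bp upstream (66, 23 fragments). Its paralog Hamp2 had neither at its start. The 8 CTCF summits named here carried 23 to 52 fragments, apart from Saa3. An exact 95% interval for a count of 23 runs from 14.6 to 34.5, so most of these weak peaks cannot be ranked against one another.

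**Figure D2:**
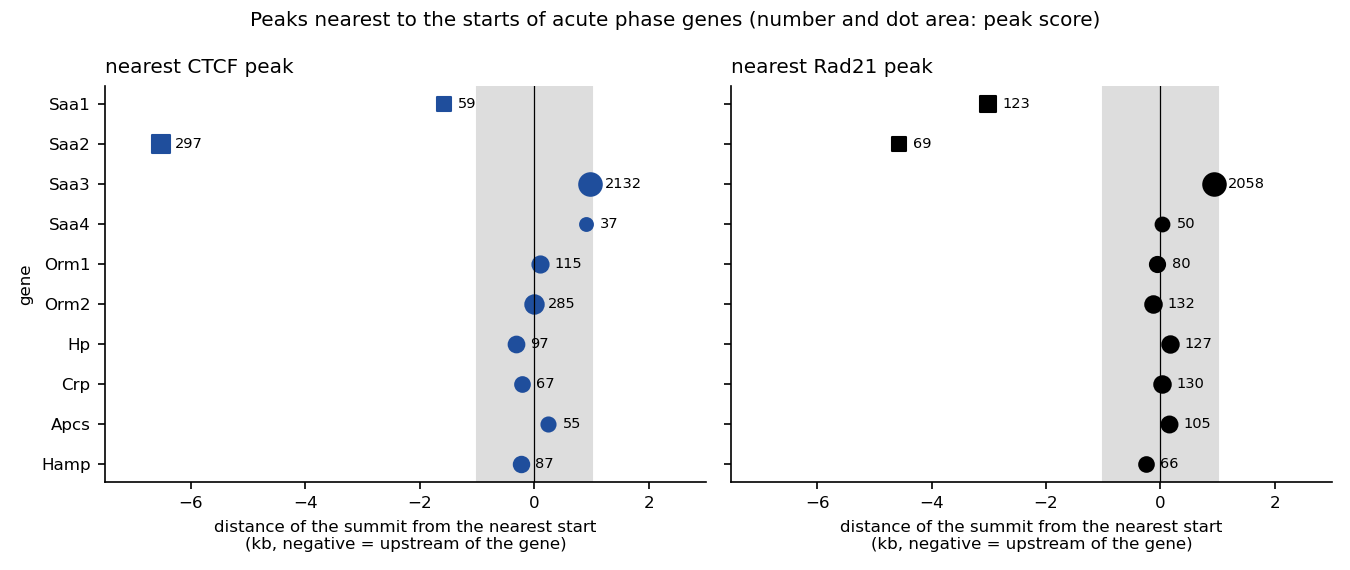
Distance (kb, negative upstream) from the nearest annotated start to the nearest CTCF summit (left panel) and Rad21 summit (right panel) of each gene, with the peak score beside each point. Marker area grows with the log of the score, and squares mark Saa1 and Saa2, whose summits lie outside the shaded 1 kb, while Saa3 stands out with scores of 2132 and 2058.

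The 4 Saa genes lay between a convergent pair of anchors. The intra-TAD anchor in the Saa3 intron has its motif on the + strand. The next anchor to the right, an intra-TAD anchor in an Hps5 intron (chr7:54026048-54026516, CTCF 5035 with 513 fragments, Rad21 1977), has it on the - strand. The pair spans 56.2 kb. Counting each gene by its outermost 5′ end, here and for the spans below, it holds 4 protein-coding genes, namely Saa3, Saa4, Saa1 and Saa2. Hps5 also has an inner annotated start within it. Because the left anchor is inside Saa3, the start and 5′ part of Saa3 are within the pair and its 3′ part outside. Between the pair the CTCF peaks scored 37 to 297 and none was an anchor.

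To the left, a TAD anchor with a + motif lay 65 bp upstream of a Tph1 start (chr7:53920520-53921008), and scored 2498 with 260 fragments. Tph1 encodes a tryptophan hydroxylase of serotonin synthesis. The 49.3 kb between this anchor and that in Saa3 held the outermost 5′ ends of Tph1 and Saal1. The strongest CTCF peak of the window was an other CAC site 59 bp upstream of Saal1 (chr7:53965757-53966368), with a score of 8571, 930 fragments and a motif on the - strand. It stood to the left of the Saa3 anchor and its motif pointed away from it. At the right edge of the window, the start shared by Hps5 and Gtf2h1 had CTCF at 617 and 3 Rad21 peaks, the highest at 338.

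Rad21 differed widely between Saa sites of strong CTCF. The Saal1 site had a Rad21 score of 181, where 959 co-bound CTCF peaks of like CTCF score (the ratio of the lower to the higher at least 0.8) had a median of 1818, and 2.5% of them were as low. The Tph1 anchor had a Rad21 score of 87, where 6258 like peaks had a median of 707.5 and 2.54% were as low. The anchor in Saa3 was at the other end. Its Rad21 score of 2058 was at or above that of 96.5% of 5899 like peaks, whose median was 572. The anchor in Hps5 (60.8%) and the start of Hps5 and Gtf2h1 (74.4%) were nearer to the middle of their like peaks.

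In the Orm window, Orm1 and Orm2 lay between anchors whose motifs point the same way. On the left were 2 intra-TAD anchors in Col27a1 introns, both with - motifs. The farther scored 4157 for CTCF and 2658 for Rad21 (chr4:62968370-62968921) and the nearer, 24.8 kb from Orm1, 3007 and 801 (chr4:62980508-62980983). On the right, 6.19 kb from Orm2, was a TAD anchor in an Akna intron with a - motif and scores of 1186 and 274 (chr4:63032913-63033299). A stronger site stood just before it, an other CAC site with a + motif, CTCF 6865 with 704 fragments and Rad21 2205 (chr4:63029569-63030015). The nearest anchor with a + motif to the left was 129 kb from Orm1. With the TAD anchor it makes a convergent pair of 156.8 kb that holds the outermost 5′ ends of 3 protein-coding genes, and an inner start of Col27a1. Akna had neither factor at its start.

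Hamp lay between an intra-TAD anchor with a - motif on the left and one with a + motif on the right, so the nearest anchors point away from it. The left one was in a Mag intron, 38.1 kb away, with scores of 1797 for CTCF and 916 for Rad21 (chr7:31689069-31689529). The right one, 12 kb away in Usf2 and 115 bp from a Usf2 start, had the strongest CTCF peak of all windows, at 10752 with 1241 fragments (chr7:31740797-31741488). Usf2 encodes a basic helix-loop-helix factor. Rad21 there scored 1027, below the median of 1865 of 610 like peaks. The strongest Rad21 peak of all windows with a usable strength, at 4473 with 535 fragments, lay further right at the starts of Lsr and Fam187b, on an intra-TAD anchor with a - motif and CTCF at 6415 (chr7:31758628-31759467). The nearest convergent pair around Hamp runs from a + anchor 69.1 kb to its left to this - anchor 30.2 kb to its right, over 100.9 kb and 6 protein-coding 5′ ends.

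Around Hp both TAD anchors of the window were on the same side. They lay in Pmfbp1 (- motif, CTCF 2632, Rad21 1061, chr8:112060618-112061110) and in a Dhx38 intron 23.3 kb from Hp (+ motif, 2318 and 347, chr8:112075475-112076033). On the other side the nearest anchor was 274 kb away and the nearest with a - motif 338 kb away. The convergent pair around Hp thus spans 365.7 kb and 10 protein-coding 5′ ends. The window's strongest CTCF peak was an other CAC site with a + motif 263 bp from a Dhodh start, at 5016 with 603 fragments and Rad21 of 367 (chr8:112119709-112120161). Dhodh encodes an enzyme of pyrimidine synthesis. A further other CAC site, in Pmfbp1, had CTCF at 2490 and Rad21 at 71, and 1.23% of 6253 like peaks had so little Rad21. The start shared by Dhx38 and Txnl4b had weak peaks (83 and 195), and that of Pkd1l3 CTCF at 267 without Rad21.

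The highest Rad21 score of the Hp window, 2941 in a Txnl4b intron (chr8:112095736-112096130), cannot be taken as measured. Its fold over background was 2.58, and 2148 Rad21 peaks within 5% of that fold had a median score of 47 and a maximum of 531. Its fold and p-value equalled those of 1 other peak, in Erbb3 on chromosome 10, and no whole number of fragments fitted either. Without it the median Rad21 score of the windows was 114.5 in place of 123. The strongest usable Rad21 peak of the window scored 1556, at Dhodh (chr8:112117167-112117728).

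Crp and Apcs, 194 kb apart on chromosome 1, had no anchor within 50 kb, as did 35% of protein-coding genes. The share was 53.0% among genes of at most 5 kb, and 59.9% among genes with a CpG ratio no higher than that of Saa4. The part of the lower read uniqueness of these 2 windows was not tested. Crp and Apcs lay in the same interval between anchors, 690.7 kb long with 10 protein-coding 5′ ends. It ran from a TAD anchor with a - motif to an intra-TAD anchor with a + motif. The left anchor was 64.8 kb from Crp and the right one 429 kb from Apcs. The nearest convergent pair around them spans 758.2 kb and 14 protein-coding 5′ ends. Within the Crp window 1 CTCF peak scored over 1000, an other CAC site with a + motif far upstream of Crp (CTCF 3017, Rad21 1304, chr1:174580563-174581051). The strongest CTCF peak near Apcs scored 354 with 59 fragments (chr1:174784740-174785264). Its Rad21 peak scored 408, at or above 90.3% of 4245 like peaks.

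**Figure D3:**
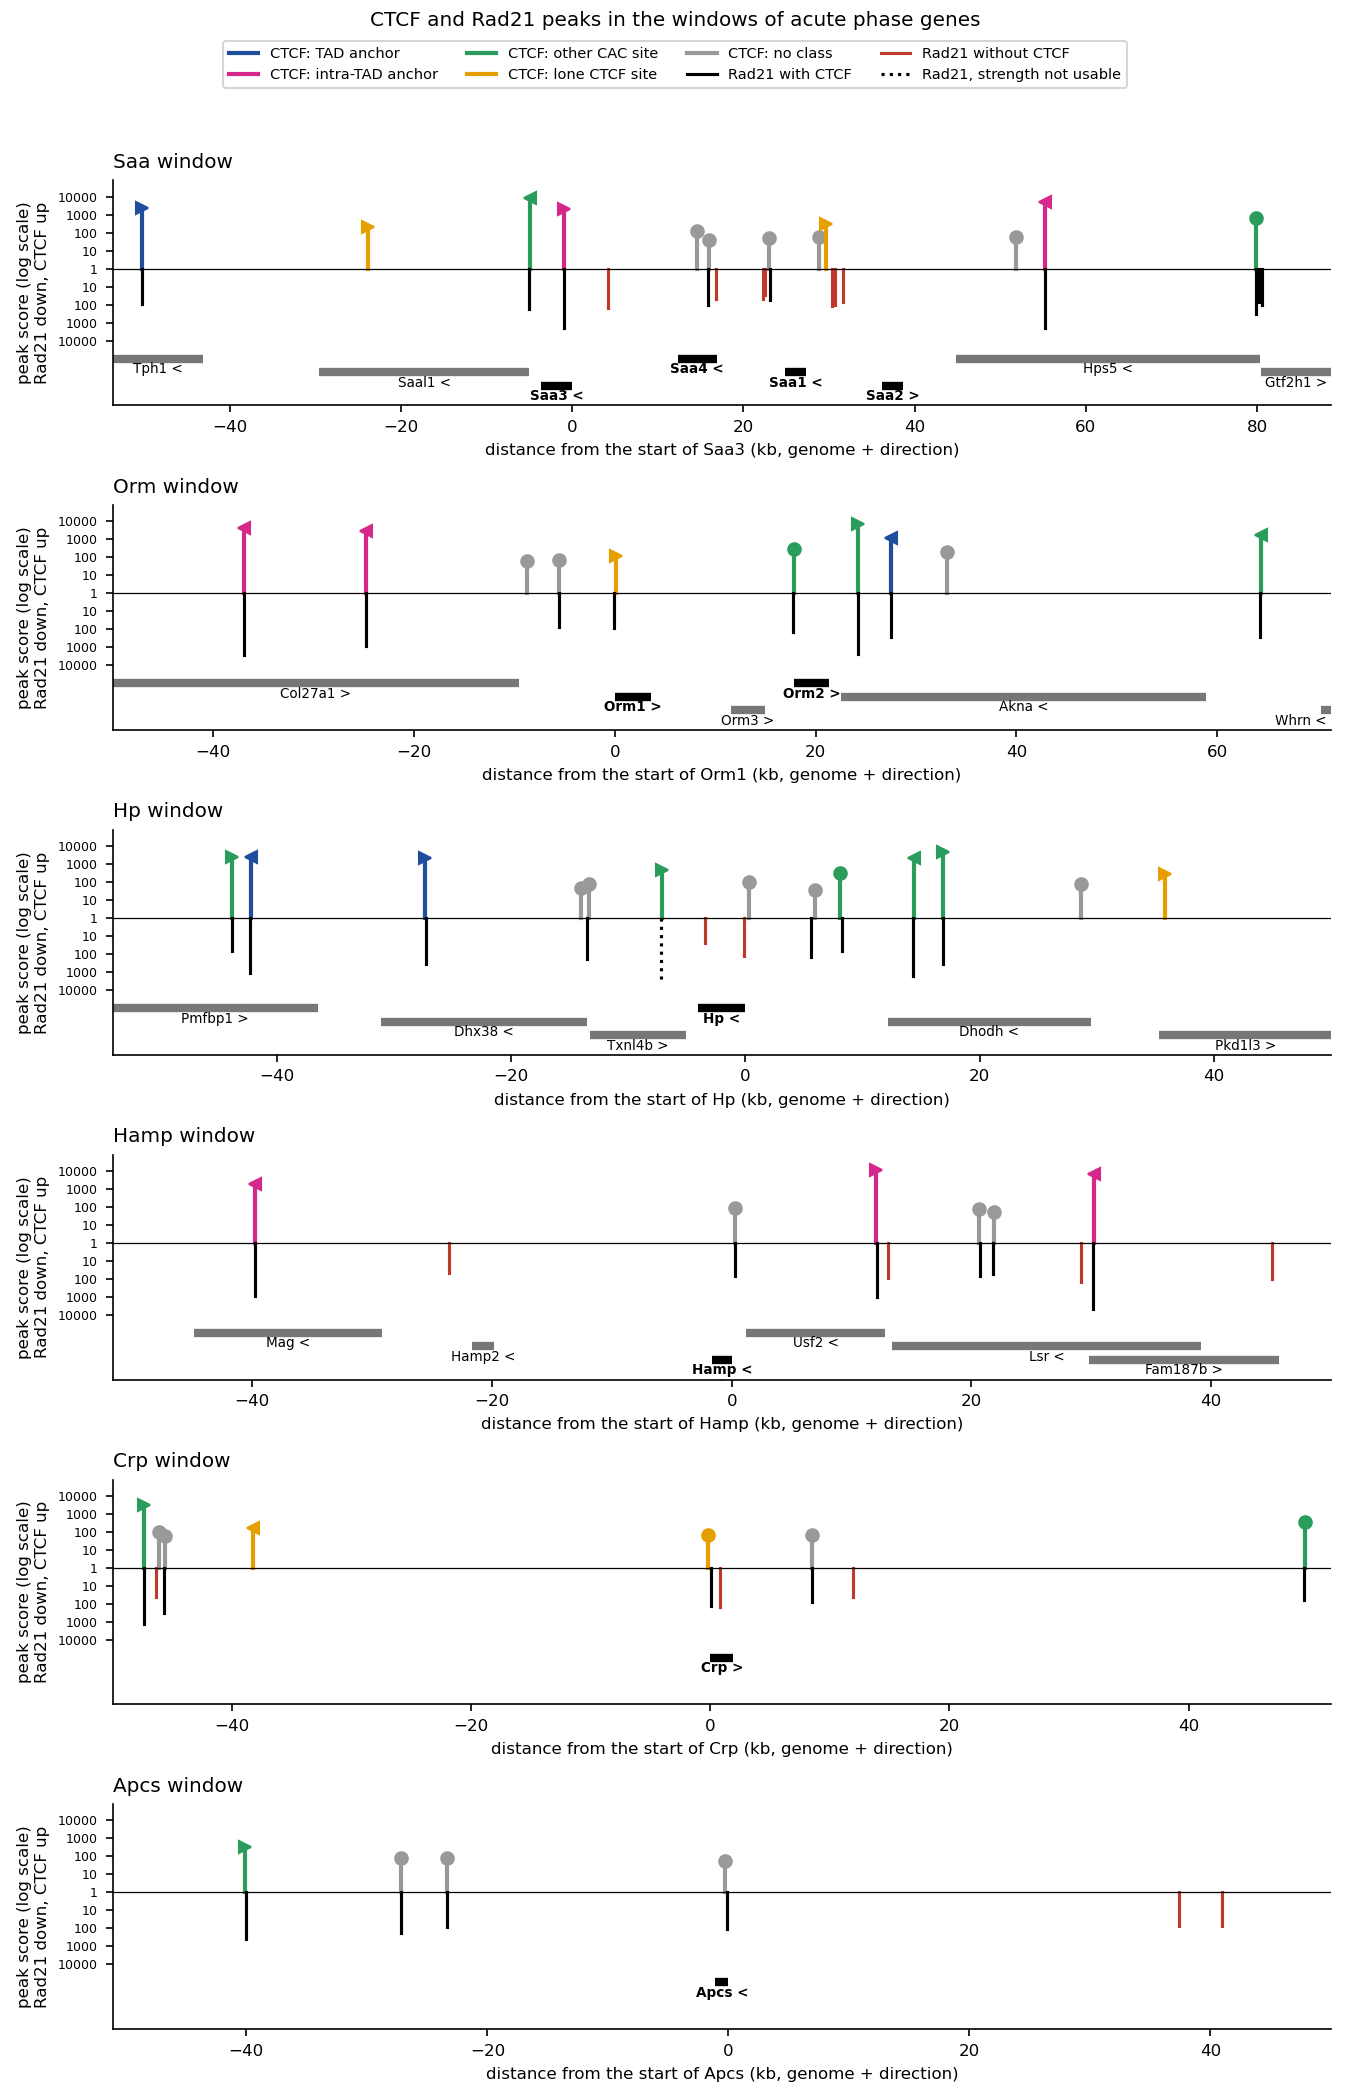
CTCF peaks (upward, coloured by class, arrowhead in the direction of the motif or a circle where none was given) and Rad21 peaks (downward, black with CTCF and red without) by score on a log axis, against distance (kb) from the start of a gene in each window, with protein-coding genes below and members in black. The right-pointing anchor in Saa3 and the left-pointing anchor in Hps5 enclose the 4 Saa starts, while the Crp and Apcs windows hold no anchor.

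**Figure D4:**
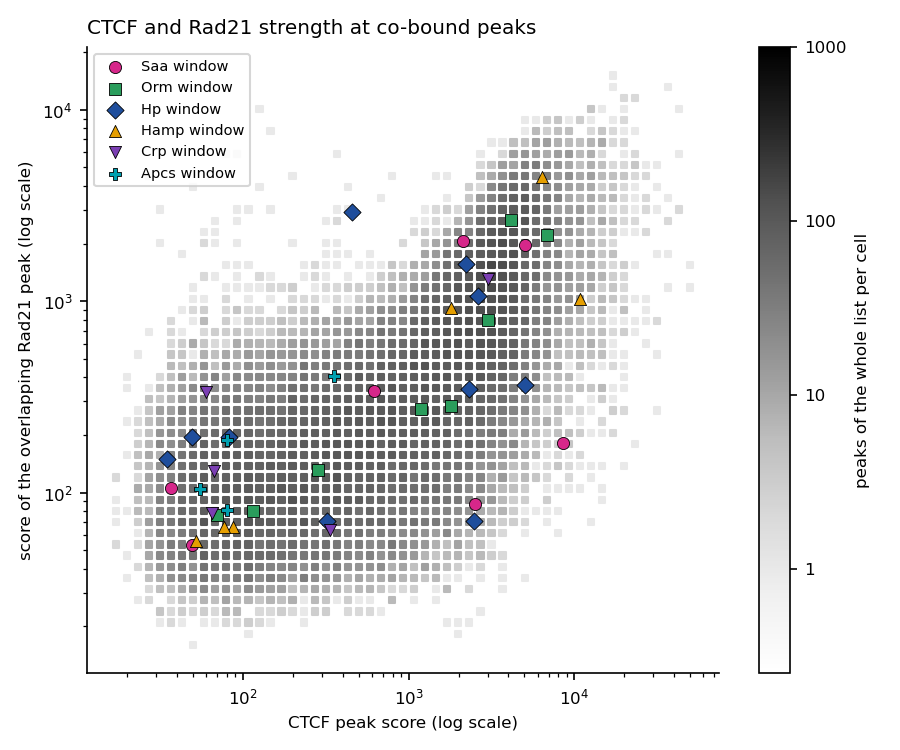
Score of each CTCF peak with a Rad21 peak (horizontal, log axis) against the score of that Rad21 peak (vertical, log axis), with grey squares for the number of peaks of the whole list per cell and coloured symbols for the windows. The Saa points at CTCF 2498 and 8571 and the Hp point at 2490 lie at the lower edge, with Rad21 of 87, 181 and 71, and the Hp point at Rad21 2941 is the one whose strength cannot be used.

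The class list also marks overlap with public peaks of Stag1 and Stag2, alternative subunits of cohesin, and of Top2b, a topoisomerase. Of the 30 classed sites in the windows, 22 were marked for Stag1 (73.3%, against 70.6% in the whole list), 27 for Stag2 (90.0%, against 88.1%) and 19 for Top2b (63.3%, against 54.8%). All of the whole-list shares lie inside the windows' exact 95% intervals. The Saal1 site, the Tph1 anchor and the Pmfbp1 other CAC site, low in Rad21 for their CTCF, were each marked for Stag2 and not for Stag1, and were singled out after their values were seen. The same marks stood at 5 of the 30 sites (16.7%, against 18.6% of the whole list). Another of the 5, at Orm2, had Rad21 at the middle of its like peaks (46.9%). The last of the 5 was the site in the Txnl4b intron, whose Rad21 strength cannot be used. The Dhodh site, also low in Rad21 for its CTCF (8.57%), was marked for both. At the 21 co-bound sites with a motif, the Rad21 summit lay a median of 34 bp towards the 3′ end of the motif from the CTCF summit (-155 to 139), and on that side at 15 of 21. In the whole list the median was 17 bp, and 68.3% lay on that side.

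Further acute phase genes were counted in the same way. Of 12 other positive genes and paralogs, 5 had a CTCF and 7 a Rad21 summit at a start (41.7% and 58.3%, against 55.1% and 52.3% of all protein-coding genes), and the strongest CTCF scores there were 64 to 703 (median 88). Fga, for the alpha chain of fibrinogen, had CTCF at 88 at the strongest of its starts (28 at its outermost 5′ end) and Rad21 at 334, and Hpx, for haem-binding hemopexin, 166 and 120. Lcn2, Fgb and Fgg had neither. Of 5 negative acute phase genes, 2 had CTCF and 4 Rad21, against the same 55.1% and 52.3%. Of these, Ahsg (59 and 70) and Rbp4 (238 and 467) had both, Ttr (227) and Trf (113) had Rad21 alone, and Alb had neither.

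Genes that carry the signal into the cell had a higher median CTCF score at their starts than the members, a difference that was not tested. Of 13 listed, 12 were matched in the annotation, and 11 of these had both factors at a start (50.1% of all protein-coding genes). The strongest CTCF score at any of a gene's starts had a median of 948, against 538 for all genes and 92 for the members. These genes have up to 14 annotated starts, however, where the members have 1 or 2. At the outermost 5′ end alone, 10 of the 12 had CTCF (51% of all protein-coding genes did), with scores of 74 to 8053 and a median of 603.5, against 474 for all genes and 92 for the members.

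Cebpb, a C/EBP factor, had CTCF at 8053 and Rad21 at 585, and Socs3, the feedback inhibitor, 4730 and 1394. Stat3, the transcription factor of the interleukin 6 pathway, had 268 and 482 at its outermost 5′ end, and 11133 and 4749 at the strongest of its 14 starts. The lowest scores at that end were 86 at Il1r1 and 74 at Tnfrsf1a, both receptors. Of the 10 scores, 8 lay within the range of the members, 37 to 2132, whose upper end is Saa3 alone. The other members with a CTCF summit at a start scored 37 to 285. Only Il1r1, Tnfrsf1a and Stat3 lay in that narrower range. Il6st, the shared receptor chain gp130, had neither factor within 1 kb. The CpG ratio at these 12 genes was 0.318 to 1.01, above that of each of the 10 members, and its part in the higher median score was not tested.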

How the data were processed

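The deposited files were a pooled peak list for CTCF, one for Rad21 and a class list of CTCF sites. According to the study's methods, the authors mapped 50 bp reads to mm9 with Bowtie2, kept uniquely mapped reads, called peaks with MACS2 on reads merged per factor, and removed blacklisted regions and peaks of PCR duplicates. The deposited columns used were the peak score (10 times the −log10 q-value), the fold (a ratio of summit pileup to local background) and the −log10 p-value. Motif scores and strands were the authors', from FIMO. Depth per library is unknown from these lists, and no input or IgG values were used here.

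Fragments at a summit were recovered from fold and p, whole within 0.05 at 99.996% of CTCF and 99.997% of Rad21 peaks. Genes were from GENCODE vM1 (22380 protein-coding), and all 22 chromosome names fitted the reference. Co-binding meant at least 1 bp of overlap, and a gene's start meant a summit within 1 kb of an annotated transcript start. Windows were the gene ± 50 kb. Motifs were located with the study's core CTCF matrix, whose best match was on the deposited strand at 99.5% of 43337 sites, and a match needed a log-odds score of 6.65. Intervals are Clopper-Pearson at 95% (SciPy 1.17.1, pandas 2.3.3, pysam 0.24.0) and cover counting error only. Scripts were tested on simulated data.

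The 10 members and the gene lists were chosen with earlier results of these data known. Genes were named by a fixed rule: every member, every anchor, the strongest peak per window, and genes with a window peak at their start. The listed acute phase and signalling genes with values, and sites singled out for low Rad21, were chosen after their values were seen. Liver identity could not be checked from peak lists alone.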

Additional observations from a re-analysis of the deposited data

How the results depend on the processing

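Of 39 alternative values, 25 stayed within the limits set for them (an exact interval for a share or median, 1.5 times for a count) and 14 moved. A flank of 25 kb gave 39 Rad21 peaks, 17 classed sites and 6 anchors, and a flank of 100 kb gave 84 CTCF peaks, 91 Rad21 peaks and 49 classed sites, by construction. At 25 kb the median CTCF score was 115 in place of 240, inside its wide interval of 87 to 617. With scores of at least 100, 31 CTCF and 35 Rad21 peaks remained with median scores of 1801 and 282, and 3 of 10 members kept a CTCF summit at a start, below the 49.9% of protein-coding genes, where 8 of 10 had been above the 55.1% with all peaks. They stayed above the 22.3% of genes of at most 5 kb and the 9.29% of CpG-poor genes. Co-binding depended on its definition: Rad21 peaks without CTCF were 44.1% with 50% reciprocal overlap and 49.2% with summits within 100 bp, where CTCF peaks with Rad21 were 57.7%. The whole list was not counted under these definitions, so these shares cannot be set against its 22.7% and 67.3%. Among alternatives chosen after seeing the data, leaving out the Rad21 peak of unusable strength gave a median Rad21 score of 114.5, and the outermost 5′ end alone gave median CTCF scores of 92 for the members and 603.5 for the signalling genes. No paired analysis was possible because the lists pool the replicates and hold no value per library, and for the same reason no replicate could be left out.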
